A study of Oryza sativa with 6 samples.

Results

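The miR169 family was followed in small RNA libraries from rice leaves. Its members were all entries of the normalized miRNA table whose name holds miR169 or MIR169 with no further digit, for any species prefix, either hairpin arm and any length. This gave 24 of 479 miRNA names, once exact repeats of a row were dropped, and 19 of 454 distinct sequences. The plants were CA21, a non-transgenic rice germplasm that tolerates glyphosate. It was bred from Zhejing30 by gamma radiation and EMS, followed by crosses to the sensitive rice P1003. Seedlings at the third-leaf stage were either sprayed with glyphosate at 2 mg/ml (GLY, 3 libraries) or left unsprayed (CK, 3 libraries), so both groups share the CA21 background and no sensitive line was analysed here. Leaves were taken when sprayed P1003 had died, a time given without a number of days. Glyphosate is a herbicide that blocks an enzyme of the shikimate pathway. Whether the replicate libraries stem from different plants is not in the labels, and a p-value below therefore refers to the spread between these libraries alone.

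miR169 is one of the old miRNA families of land plants. Its mature strand pairs with a site in mRNAs of NF-YA genes, and guides their cleavage. NF-YA is the subunit that lets the trimeric NF-Y complex bind CCAAT boxes in promoters, and the miR169 and NF-YA pair is known from responses to drought, salt and low nitrogen. The other strand of the hairpin is usually degraded and is not known to act on NF-YA mRNAs. The libraries are of whole leaves, in which fewer cells of a type and less RNA per cell cannot be told apart. The libraries hold small RNA alone, so levels of NF-YA mRNAs were not analysed here. By qPCR, the paper reports the NF-YA gene NFYA10, found in its degradome sequencing, as up-regulated in GLY.

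The sequences fell into the strand that carries the NF-YA pairing stretch and the strand that does not, so both sets are shown. The first 8 sequences hold the letters AGCCAAG, near the 5′ end of the mature strand. Capitals mark bases 2 to 8 of each sequence, the seed, and T stands for U as in the table.
osa-miR169h: tAGCCAAGgatgacttgcctg
ath-miR169h_R+1: tAGCCAAGgatgacttgcctga
osa-miR169f.1: tAGCCAAGgatgacttgccta
osa-miR169n: tAGCCAAGaatgacttgccta
osa-miR169r-5p_R+1: tAGCCAAGgatgatttgcctgt
osa-miR169b: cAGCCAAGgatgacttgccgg
osa-miR169e_L-1R+1: aGCCAAGGatgacttgccggc
bdi-MIR169f-p5: aGGATGCAgccaaggatgact

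Of these, 6 shared the seed AGCCAAG, and differed from osa-miR169h by few bases. With positions counted from 1 at the 5′ end of osa-miR169h, and its base written first, osa-miR169r-5p_R+1 had C14T and 1 further base at its 3′ end. The differences were G9A and G21A in osa-miR169n, G21A in osa-miR169f.1, and T1C and T20G in osa-miR169b. The Arabidopsis-named ath-miR169h_R+1 was osa-miR169h with 1 more base at the 3′ end. The other pair was shifted in register: osa-miR169e_L-1R+1 began at base 2 of the mature strand and had T20G, while bdi-MIR169f-p5, named after a hairpin of the grass Brachypodium, began 6 bases upstream. Reads of such near-identical sequences could have been divided among several names, so values of single members are uncertain. The sums below count each sequence once. Whether reads were also divided among repeat rows of a name, or among names of the same sequence, was not tested.

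The opposite arm held 10 sequences under 15 names. Those below carried most of its signal, or were above 0 in the CK libraries only. Capitals mark the letters CTTGGCT, the reverse complement of AGCCAAG, where a sequence holds them.
osa-miR169r-3p: tggcaagtctcctcggctacc
bdi-MIR169f-p3: aagtttgtcCTTGGCTacaccttg
osa-miR169i-3p: tgagtcgctcttatcactcatg
osa-MIR169g-p3: ggcagtctcCTTGGCTagc
osa-MIR169k-p3: ggcagtctcCTTGGCTagt
osa-MIR169a-p3: ctacatcttggcccctgctcc
osa-MIR169o-p3: atgggccggtcttCTTGGCTagc

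The sequence of osa-MIR169g-p3 was also listed for the hairpins h, j, l and m, with the same values, and that of osa-MIR169o-p3 for hairpin n. The letters CTTGGCT were in 7 member sequences and in 1.98% of all 454 sequences of the table. The letters AGCCAAG, searched on the listed strand, were in 8 member sequences and in 2.20% of all. Paired by RNAduplex, the arms of hairpin r formed 17 base pairs at -26.2 kcal/mol, and those of the Brachypodium hairpin 19 at -22.5 kcal/mol. osa-miR169i-3p formed only 10 with osa-miR169h, at -8.8 kcal/mol.

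The remaining member, osa-MIR169a-p5, was on the 5′ side of its hairpin but does not hold AGCCAAG, and ends with the first 5 bases of the osa-miR169b sequence. Capitals mark these bases.
osa-MIR169a-p5: atcggaggccatggtgCAGCC

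It is therefore counted apart from the NF-YA arm, although the family is named for that target. The lengths of the 19 sequences ran from 19 to 24 nt, with 11 of 21 nt, and 7 sequences began with T.

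The libraries were of unequal depth, and 1 of them stood apart. What 1 read was worth after scaling, read from the steps between low values, corresponded to 97902 (GLY 3) to 304753 (CK 3) miRNA reads per library, and the summed normalized values were 136071 to 177269. Both totals were taken over all 479 names, so a sequence under several names counts more than once. In the paper's read summary, valid reads were fewer in every sprayed library than in the lowest unsprayed one. Its adaptor and length filter also removed a larger share of raw reads from all sprayed libraries. The miRNA reads estimated here did not split by group, since GLY 1 (176515) lay above CK 1 (154436) and CK 2 (168908). Only 13 to 20 miRNAs per library lay above 0 and under 5 estimated reads, so some reads may lie behind a listed 0. Across the 251 tested miRNAs, log2 values correlated at 0.939 to 0.972 among the CK libraries and at 0.928 between GLY 1 and GLY 3, but at 0.640 and 0.557 between GLY 2 and these, with miRNAs as the points. Entries of a fixed list of families taken as rRNA or tRNA fragments (6 names) made up 0.0768% to 0.214% of the CK libraries. They made up 0.611%, 0.0969% and 1.11% of GLY 1, GLY 2 and GLY 3, with none of the 4 tested called. No sequence was matched to rRNA or tRNA here, so other such entries may be missed and these shares are not totals. The reproductive phasiRNA triggers miR2118 and miR2275 (6 names), markers of another tissue, made up 0.0604% to 0.0944% of CK and 0.221%, 0.0261% and 0.347% of GLY. The part of these differences in the miR169 results was not tested.

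The comparison of sprayed with unsprayed leaves asked which miRNAs respond to glyphosate. miR169 members were lower in GLY on both hairpin arms, and none was called higher. The members called lower were osa-miR169h and osa-miR169r-5p_R+1 of the NF-YA arm, and osa-miR169r-3p and bdi-MIR169f-p3 of the opposite arm. They were 4 of 18 tested names (14 sequences), by limma at an adjusted p under 0.05, where 3.59% of all 251 tested miRNAs were called lower and 7.57% higher. The filter on low values (3 libraries at 10 or above) left out 6 of the 24 names. The 3 GLY values lay below all 3 CK values for 14 of the 18 tested names (10 of 14 sequences), against 21.9% of all tested miRNAs. Under the study's rule as applied here to limma (p under 0.05 before adjustment, with a log2 fold change of -1 or below), 11 tested names (7 sequences) passed, against 13.9% of all. The fitted fold change was below 0 for 17 of 18 names, against 62.9% of all, although that of osa-MIR169a-p3 turned to 0.082 when libraries were scaled by their median ratio. The median log2 fold change was -1.69 over the 14 tested sequences and -0.46 over all tested miRNAs. That overall median moved to -0.60 with equal library totals, -0.31 with quantile normalization and -0.26 with median ratio scaling, so changes are read against it.

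**Figure D1:**
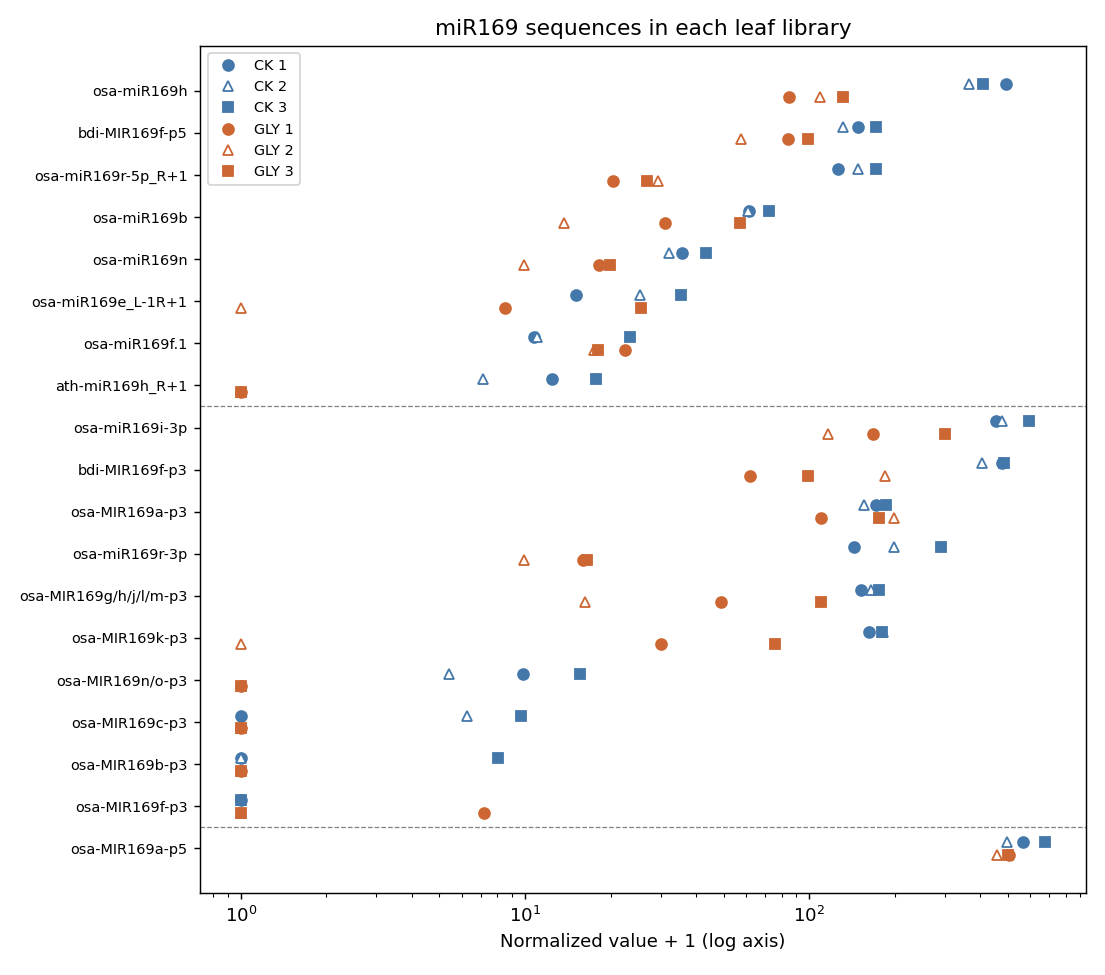
Normalized value + 1 (log axis) of each of the 19 miR169 sequences in the 3 unsprayed (CK, blue) and 3 sprayed (GLY, orange) libraries, with 1 symbol per library and dashed lines between the NF-YA arm (top), the opposite arm and osa-MIR169a-p5 (bottom). The CK and GLY symbols are apart for 12 sequences. Of the 14 tested sequences, 10 are apart, against 21.9% of all tested miRNAs. The groups overlap for osa-MIR169a-p5, osa-MIR169a-p3, osa-miR169f.1, osa-miR169e_L-1R+1 and the scarce osa-MIR169b-p3, osa-MIR169c-p3 and osa-MIR169f-p3.

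On the NF-YA arm, osa-miR169h was the most abundant sequence. It is listed on 6 rows of the table, since several hairpins encode it. Its normalized value was 490.4, 364 and 407 in CK 1 to CK 3 and 84.2, 108 and 130.1 in GLY 1 to GLY 3. The lowest CK library was thus above the highest GLY library by more than the spread within either group. Its mean went from 421 ± 64.1 (SD, n = 3) to 107 ± 22.98, and limma gave a log2 fold change of -1.97 ± 0.31 (SE, adjusted p = 0.0145). It stood 50th of all miRNAs by mean value in CK and 116th in GLY.

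The level of osa-miR169r-5p_R+1, the mature strand of hairpin r, was 125, 147 and 170.3 in the CK libraries and 19.3, 28.4 and 25.8 in the GLY libraries. No GLY library came near the CK range. The mean fell from 148 ± 22.6 (SD, n = 3) to 24.5 ± 4.66, which was -2.55 ± 0.36 (SE) on limma's log2 scale (adjusted p = 0.0120). The GLY values correspond to 22, 19 and 15 estimated reads.

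The shifted sequence bdi-MIR169f-p5 had CK values of 147, 131 and 170.3 and GLY values of 83.5, 56.8 and 98.1. The groups did not overlap, but the difference did not pass the test (limma log2 fold change -0.93 ± 0.35 (SE), adjusted p of 0.158). ath-miR169h_R+1, the longer form of osa-miR169h, was at 11.5, 6.14 and 16.8 in CK and listed at 0 in all 3 GLY libraries, and it did not pass the filter on low values. In CK it amounted to 2.34%, 1.68% and 4.12% of osa-miR169h. At the mean of these shares, GLY 1 to GLY 3 would hold 2.596, 1.965 and 2.052 estimated reads of it. Few miRNAs were listed with under 5 estimated reads, so some reads may lie behind these values of 0. Whether it fell by more than osa-miR169h was not tested.

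The other 4 sequences of the NF-YA arm had lower values, and none was called. osa-miR169b (60.5, 59.8 and 71.4 in CK, then 30.0, 12.7 and 55.9 in GLY) and osa-miR169n (34.8, 31.1 and 42.4, then 17.1, 8.96 and 18.9) were lower in every GLY library than in any CK library. For osa-miR169e_L-1R+1 the groups overlapped, at 14.1 to 34.5 in CK and 0 to 24.6 in GLY. osa-miR169f.1 also overlapped and was, on the values as deposited, the only tested member with a fold change above 0, at 9.77, 10.01 and 22.4 in CK and 21.5, 16.4 and 17.1 in GLY (limma log2 fold change 0.45 ± 0.59 (SE), adjusted p of 0.671). It differs from osa-miR169h by its last base alone, G21A. Of the 7 tested sequences of this arm, 2 were called lower and 0 higher, against 3.59% and 7.57% of all 251 tested miRNAs. The median log2 fold change was -1.26, against -0.46 over all.

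Among the opposite strands, osa-miR169r-3p, the partner of osa-miR169r-5p_R+1, had the lowest fitted fold change of the tested members on the values as deposited, while osa-MIR169k-p3 was lower with a pseudocount of 0.5 and without CK 3, GLY 1 or GLY 3. Its CK values were 143, 198 and 291, and its GLY values 14.9, 8.96 and 15.5. The CK libraries differed among themselves, but all were far above GLY. The limma log2 fold change was -3.88 ± 0.45 (SE, adjusted p = 0.00748), the 4th lowest fold change of the 251 tested. The paper names this strand as the largest decrease among its differentially expressed miRNAs, under its own test and thresholds. In GLY, osa-miR169r-3p rests on 17, 6 and 9 estimated reads.

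bdi-MIR169f-p3, the partner of bdi-MIR169f-p5 and a sequence of 24 nt, had 475, 406 and 485 in the unsprayed libraries and 60.7, 184 and 98.1 in the sprayed ones. The groups were apart, with GLY 2 the highest sprayed library. Its limma log2 fold change was -2.13 ± 0.46 (SE), and its adjusted p was 0.0352.

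The remaining abundant opposite strands did not pass the test with all libraries. osa-miR169i-3p, listed as a mature miRNA of hairpin i, was at 452, 475 and 594 in CK and 166, 115 and 299 in GLY (limma log2 fold change -1.49 ± 0.42 (SE), adjusted p of 0.0790). The sequence shared by hairpins g, h, j, l and m was at 151, 164 and 175 in CK and 47.9, 15.2 and 109 in GLY (-1.89 ± 0.71, adjusted p of 0.158). osa-MIR169k-p3, which has the same seed GCAGTCT and differs from it in the last base, was at 162, 181 and 180.0 in CK and 29.0, 0 and 74.8 in GLY (-3.74 ± 1.58, adjusted p of 0.189). In all of these the groups did not overlap and GLY 2 was the lowest library.

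The strand osa-MIR169a-p3 overlapped between groups, at 171, 155 and 185 in CK and 109, 197 and 175 in GLY (limma log2 fold change -0.12 ± 0.34 (SE), adjusted p of 0.846). The scarce opposite strands were mostly seen in CK. The sequence of osa-MIR169o-p3 and osa-MIR169n-p3 was at 8.81, 4.38 and 14.6 in CK, or 10, 5 and 27 estimated reads, and listed at 0 in all GLY libraries. osa-MIR169c-p3 and osa-MIR169b-p3 were above 0 in 2 and 1 CK libraries and in no GLY library, and osa-MIR169f-p3 was above 0 in GLY 1 alone, at 6.16. None of these 4 sequences passed the filter. Of the 6 tested sequences of the opposite arm, 2 were called lower and 0 higher, against 3.59% and 7.57% of all 251 tested miRNAs. The median log2 fold change was -2.01, against -0.46 over all.

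With each value counted once, the member with the highest listed mean was osa-MIR169a-p5. Whether reads of osa-miR169h were divided among its 6 rows, or those of the osa-MIR169g-p3 sequence among its 5 names, was not tested. osa-MIR169a-p5 had CK values of 564, 496 and 676 and GLY values of 502, 456 and 501, which overlapped. The means were 579 ± 90.9 (SD, n = 3) and 486 ± 26.3, and the limma log2 fold change was -0.24 ± 0.27 (SE, adjusted p = 0.623).

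**Figure D2:**
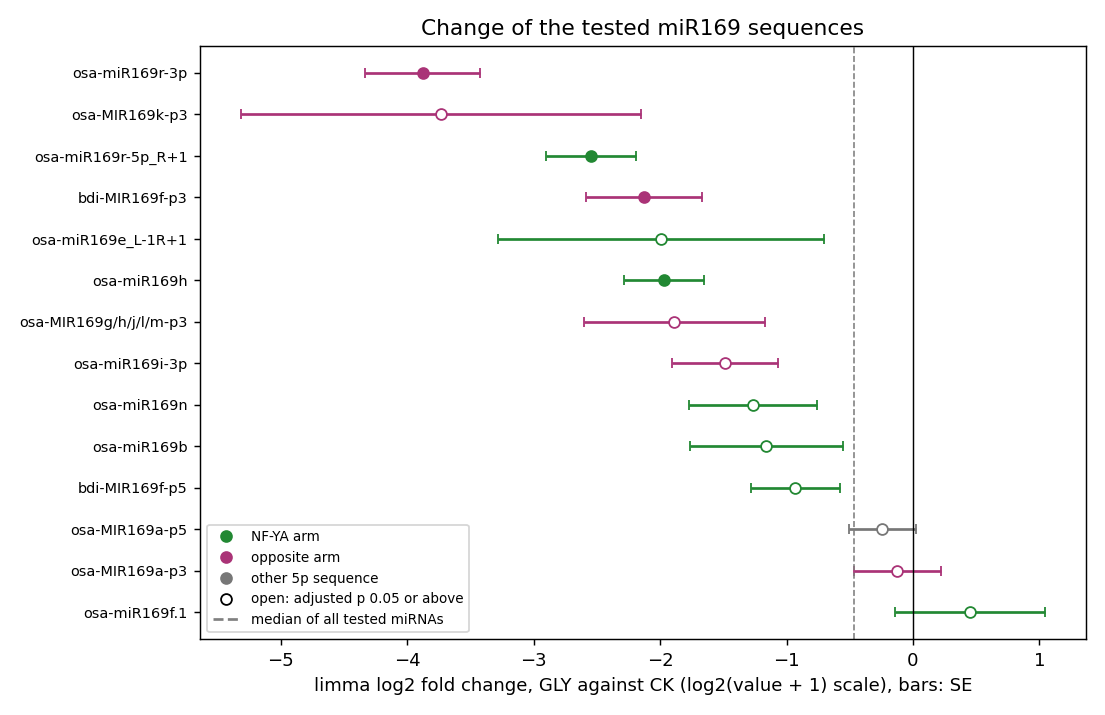
limma log2 fold change, GLY against CK, of the 14 tested miR169 sequences, with bars of 1 SE, filled symbols for an adjusted p under 0.05 and a dashed line at the median of all 251 tested miRNAs (-0.46). The 4 filled symbols lie between -3.88 and -1.97, and the hairpin a sequences lie at -0.24 and -0.12.

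The member calls depended on single libraries. Without GLY 2, 11 names (7 sequences) were called lower, against 34.3% of all tested miRNAs. The sequence shared by hairpins g, h, j, l and m, osa-miR169i-3p and osa-MIR169k-p3 then passed limma as well, with log2 fold changes of -1.16, -1.17 and -1.88 and adjusted p of 0.0455, 0.0281 and 0.0126. Without GLY 1 and without GLY 3, 3 members were called (4.38% and 2.79% of all called lower), and bdi-MIR169f-p3 was lost. When the filter on low values was reapplied to the 5 libraries, which changed the miRNAs tested, no member was called in either case. Without CK 3, only osa-miR169r-3p was called (0.398% of all), as with the replicate number as a block (0.398%). Without CK 1 and without CK 2, no member was called (0.0% of all called lower). In these fits and the 9 other alternatives, the fold change of each of the 4 called members stayed below 0. All CK values of each lay above its GLY values, so leaving out a library or adding the block could not turn the sign.

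Summed over the 19 distinct sequences, miR169 stood at 3020.3, 2859 and 3550.4 in CK and 1199, 1207 and 1643 in GLY. Group means were 3143 ± 362 (SD, n = 3) and 1349.6 ± 254, 2.33-fold lower in GLY with no overlap. As a share of the values summed over all 479 names, this was 2.22%, 1.93% and 2.16% in CK and 0.772%, 0.681% and 0.975% in GLY. In that total, a sequence under several names counts more than once. Summed alone, the NF-YA arm went from 867 ± 83.6 to 288 ± 72.9, 3.01-fold lower, and the opposite arm from 1697 ± 210.4 to 575 ± 175, 2.95-fold lower. The difference between the arms was not tested. The 6 sequences with the seed AGCCAAG went from 694 ± 64.8 to 198 ± 43.0, 3.50-fold lower. These sums are given as a description. Each sequence was counted once in them. Any reads divided among repeat rows, such as the 6 of osa-miR169h, or names, such as the 5 of osa-MIR169g-p3, would be missed. Estimated reads in CK were whole for osa-miR169r-5p_R+1, on 1 row (142, 168 and 315). They were 39.5, 35.5 and 78.5 for osa-miR169n, on 2 rows, and 171.8, 186.9 and 323.1 for osa-MIR169g-p3. osa-MIR169a-p5, on 1 row, also had fractions (640.7 in CK 1). Whether reads were divided was not tested.

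The make-up of the family differed between the groups. osa-MIR169a-p5 held 18.7%, 17.3% and 19.0% of the miR169 sum in CK and 41.9%, 37.7% and 30.5% in GLY, without overlap. The NF-YA arm held 29.6%, 27.1% and 26.3% in CK and 22.0%, 19.2% and 22.6% in GLY, and the opposite arm held 51.7%, 55.6% and 54.6% in CK and 36.2%, 43.1% and 47.0% in GLY. Within the NF-YA arm, the share of osa-miR169h was 54.9%, 47.1% and 43.5% in CK and 32.0%, 46.8% and 35.1% in GLY, which overlapped. Shares of 1 sum cannot all move one way, so these are not separate results. They also rest on sums that count each sequence once, whatever its number of repeat rows or names.

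**Figure D3:**
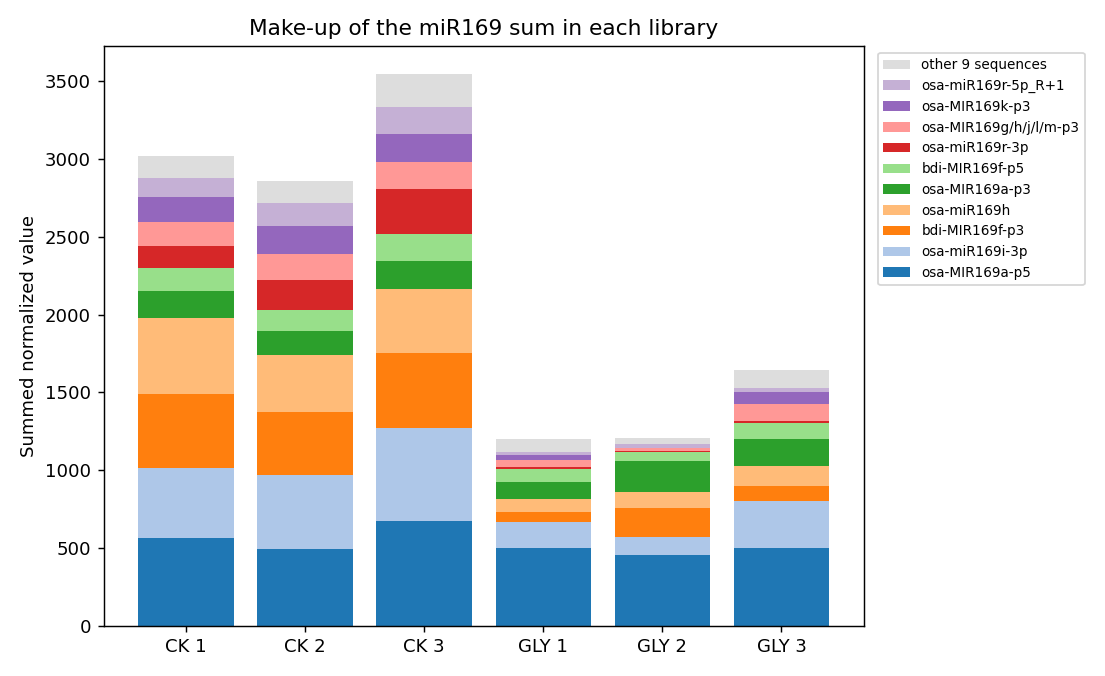
Summed normalized value of the 19 miR169 sequences in each library, stacked by sequence, with the 9 scarcest joined in grey. The CK bars reach 2859 to 3550.4 and the GLY bars 1199 to 1643, while the osa-MIR169a-p5 segment at the base is 456 to 676 in all 6.

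Ratios between sequences of the same library do not depend on how that library was scaled, apart from the pseudocount of 1. The log2 ratio of osa-miR169r-5p_R+1 to its partner osa-miR169r-3p was -0.19, -0.43 and -0.77 in CK and 0.35, 1.56 and 0.70 in GLY. Thus the 3p strand of hairpin r was the more abundant in every CK library and the less abundant in every GLY library, a difference of 1.33. In an exact two-sided permutation test this gave p = 0.1, the smallest that 3 against 3 libraries allow, and 0.183 after Benjamini-Hochberg adjustment over the 11 pairs. The ratio of osa-miR169f.1 to the opposite strand shared by hairpin g was also apart, higher by 2.34 in GLY (exact permutation p = 0.1, adjusted 0.183), by 1.68 without GLY 2 and by 3.04 without GLY 3. The table names no precursor, so this pairing and those of osa-miR169h with an opposite strand rest on the order of the entries and on the miRBase names. The opposite strand of this pair is also that of hairpins h, j, l and m.

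The other 5 arm pairs overlapped between groups. Of these, osa-miR169h with osa-miR169i-3p formed only 10 base pairs, so their ratio is not read as one between strands of the same duplex. The ratio of bdi-MIR169f-p5 to bdi-MIR169f-p3 was -1.68, -1.63 and -1.51 in CK, close to -1.68 in GLY 2, but 0.45 and 0 in GLY 1 and GLY 3 (exact permutation p = 0.3). For hairpin a it differed by -0.12 (exact permutation p = 0.8), with a SD of 0.10 in CK and 0.51 in GLY. Against osa-MIR169a-p5, all 4 called members were lower in every GLY library than in any CK library. The differences were -3.64 for osa-miR169r-3p, -2.31 for osa-miR169r-5p_R+1, -1.89 for bdi-MIR169f-p3 and -1.73 for osa-miR169h, each with an exact permutation p of 0.1 (adjusted 0.183), so no ratio could pass the threshold with these numbers. Since the numerators were chosen for being called, these 4 are a description of unequal change within the family.

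**Figure D4:**
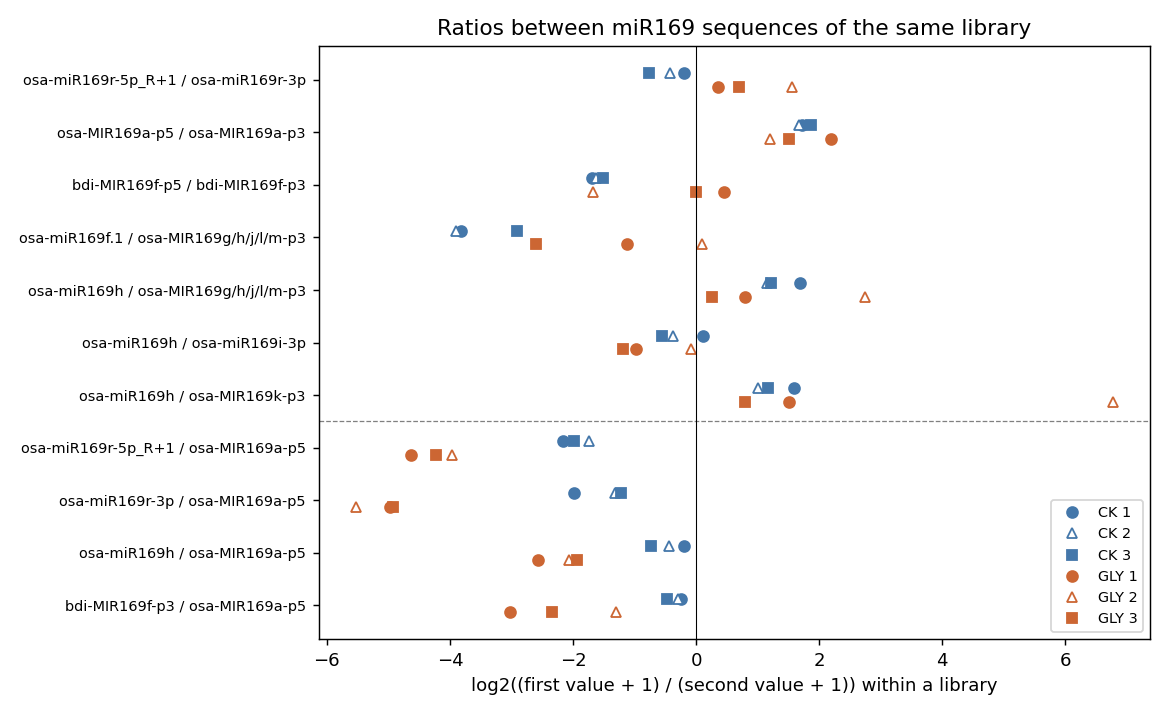
log2 ratio of pairs of miR169 sequences within each library (value + 1), for 7 arm pairs above the dashed line and the 4 called members against osa-MIR169a-p5 below it, with 1 symbol per library. The pair of osa-miR169h and osa-miR169i-3p is counted as an arm pair although it formed only 10 base pairs. CK (blue) and GLY (orange) are apart for the hairpin r arms, the osa-miR169f.1 pair and all 4 lower pairs, and GLY 2 lies far from the other sprayed libraries for osa-miR169h over osa-MIR169k-p3.

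Other miRNA groups are given for scale. Of 58 tested members of conserved families that target transcription factors (miR156, miR159, miR160, miR164, miR166, miR171, miR172, miR319 and miR396), 2 were called lower and 4 higher, with a median log2 fold change of -0.78, where 3.59% of all tested miRNAs were called lower and 7.57% higher. Of 15 tested members of families known to respond to sulfate, phosphate or copper supply (miR395, miR397, miR398, miR399, miR408, miR528 and miR827), 0 were called lower and 8 higher against the same shares of all, with a median of 2.21. All 8 were entries of miR397, miR398, miR408 and miR528. The tested miR399 and miR827 entries had log2 fold changes of -1.53 to 0.14 and none was called, and no miR395 entry passed the filter. The difference between these groups and miR169 was not tested.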

How the data were processed

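Total RNA of leaves was used by the authors for TruSeq small RNA libraries, sequenced single-end on an Illumina HiSeq. They removed adaptors, reads that were too short and other RNA classes, and matched what was left against miRBase precursors in ACGT101-miR. The deposited signal per miRNA and library is called normalized counts in the table header, and neither its scaling nor the program version is stated (not given in the sources used here). Only 78.5% to 83.5% of low values were whole multiples (to 0.01) of the step of their library, so no count model was used.

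After removal of 103 exact repeats from 582 rows, log2(value + 1) of miRNAs at 10 or more in at least 3 libraries was compared between GLY and CK by limma 3.58.1 under R 4.3.3 (trend and robust), with Benjamini-Hochberg adjustment over all 251 and no replicate block. Fold changes on this scale understate the change of low values. Ratios were compared by exact permutation (scipy 1.17.1) and arms paired with RNAduplex 2.7.2. Pseudocount, filter, scaling, block and each library were varied. Given in full were the members listed for the family, called members and those with a mean of 50 or more. osa-miR169n, osa-miR169b, osa-miR169e_L-1R+1, osa-miR169f.1 and the other scarce strands were named after their values were seen. Members and lists were chosen with earlier results of these data known. No genome was used, so no positions are given.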

Additional observations from a re-analysis of the deposited data

How the results depend on the processing

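The 28 calls over all miRNAs and the 4 among miR169 members became 6 and 1 with the replicate number as a block. Deviations of same-numbered libraries from their group means correlated at -0.388, 0.0936 and 0.467, and those of differently numbered ones at -0.481 to 0.511. With 3 libraries per group, these values cannot decide whether the numbers pair the libraries. The main fit had no block because the study states none. Leaving out one library gave 2 to 125 calls in all and 0 to 11 members, the highest without GLY 2 and the lowest without CK 1 or CK 2, and 1 to 113 and 0 to 11 when the filter was reapplied (5 and 1 without CK 1, and no member without CK 2, GLY 1 or GLY 3), an alternative chosen after seeing the data. Other pseudocounts, filters, scalings and limma options gave 22 to 32 calls and 3 or 4 members. Over the 16 alternatives without a reapplied filter, osa-miR169r-3p was called in 14 (adjusted p of 0.000628 to 0.0658), osa-miR169r-5p_R+1 in 12 (0.000729 to 0.0877), osa-miR169h in 12 (0.00228 to 0.0953) and bdi-MIR169f-p3 in 9 (0.000763 to 0.136). The log2 difference of the summed level was -1.22 as deposited and -0.998 with median ratio scaling.

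The sign turned only for differences near 0 or resting on GLY 2. The log2 fold change of osa-MIR169a-p3 was 0.082 with median ratio scaling and -0.29 to 0.13 with one library left out, the highest without GLY 1. The log2 ratio of osa-miR169h to osa-MIR169h-p3 (-0.083 with all libraries) was 0.086 without CK 1, ranged from -0.82 to 0.42 with a GLY library left out, and was 0.15 without GLY 1. With one library left out, that of osa-MIR169a-p5 to osa-MIR169a-p3 ranged from -0.40 to 0.099 and that of osa-miR169h to osa-MIR169k-p3 from -0.11 to 2.88, and both turned without GLY 2. The causes were not tested. With 3 libraries per group and 6 to 22 estimated reads per GLY library for the hairpin r strands, depth limits the precision of their fold changes.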

Other observations

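Of 233 tested miRNAs outside the family, 11 had a Pearson correlation above 0.9 with the summed NF-YA arm over the 6 libraries, on the log2(value + 1) scale. The highest were osa-MIR167c-p3 (0.969), osa-MIR1851-p3_1ss11AG (0.964), osa-miR171b and osa-miR171a_1ss12CT (0.958 each, with the same values) and osa-miR390-3p_L+3 (0.956). The libraries fall into sprayed and unsprayed, so a miRNA that differs between the groups also scores high here, and the correlation is a description. osa-miR171b, of a family that targets GRAS genes, was at 331, 357 and 443 in CK and 212, 184 and 265 in GLY, without passing the limma test (adjusted p = 0.158). osa-MIR167c-p3 was at 19.4, 15.8 and 20.5 in CK and listed at 0 in all GLY libraries.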
